A study of Gallus gallus with 2 samples.

Results

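Nuclear receptor genes and the genes of their coregulators were described in heart RNA of chicken embryos (Gallus gallus). The members were all gene names of the deposited tables that begin with the symbols of the nuclear receptors NR0 to NR6, RAR, RXR, PPAR, ESR, ESRR, THR, ROR or VDR, of the nuclear receptor coactivators NCOA and corepressors NCOR, or of the Mediator subunits MED. The rule took 60 of 13011 gene names: 24 nuclear receptors, 9 NCOA or NCOR genes, 26 Mediator subunits and NR2C2AP, whose product is known in human cells as a partner of the receptor NR2C2 and is not itself a receptor. The name rule itself uses no expression value, although it was proposed with earlier results of these data known.

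The AAPH group is 1 library of hearts from embryos given AAPH, 2,2-azobis(2-amidinopropane) dihydrochloride, which breaks down to release free radicals. The saline group is 1 library of hearts from embryos given saline. AAPH was injected into the egg's air chamber as 2.6 µmol in 100 µL, first at Hamburger-Hamilton stage 35 and then every other day until day 10, in eggs kept at 38 °C and 70% humidity. Hearts of the embryos still alive were collected for both libraries at stage 37, on day 11. No label gives the number of hearts behind a library, the sex of the embryos or the strain. Neither group was replicated, so differences below have no replicate check and no p-value was computed.

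Nuclear receptors are transcription factors that bind DNA through zinc fingers, and many of them are switched by a small fat-soluble ligand such as thyroid hormone, retinoic acid or a steroid. A ligand changes the shape of the receptor so that corepressors such as NCOR1 leave and coactivators such as the p160 proteins NCOA1 to NCOA3 join. Mediator, a complex of many subunits, then links the bound receptor to RNA polymerase II. In the embryonic heart, retinoic acid signalling is known for its part in setting the inflow and atrial region, and thyroid hormone and the estrogen-related receptors are known for their part in muscle maturation and energy metabolism.

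The values are FPKM, fragments scaled to transcript length and library size, summed over the assembled transcripts of a gene name. Each log2 ratio is log2((AAPH FPKM + 1)/(saline FPKM + 1)), which understates differences of low genes. A gene was tested where its FPKM, averaged over both libraries, was at least 1, and a gene past 1.5-fold on this scale (log2 ratio 0.585 or −0.585) was called higher or lower. The summed FPKM was 1042407 in the AAPH library and 1248089 in the saline library, and the absolute depth is unknown. Rescaling both libraries to the same sum (TPM) moved the median log2 ratio of all 10106 genes tested by 0.23. The second rescaling, with globin, mitochondrial-genome and unnamed entries left out of the sum, moved it by 0.27. Both move most ratios up, so they tend to undo lower calls and add higher ones. Medians are therefore also given relative to that of all genes.

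The tissue label was checked against markers. Of 20 cardiomyocyte symbols, 15 were found by name and none of these was at 0, with a summed level of 42235 FPKM in the AAPH library and 47587 in the saline library. Of these 15, 0 were higher and 1 lower as deposited, and 1 was higher and 0 lower after rescaling to TPM. Of all genes tested, 2.73% were higher and 3.93% lower as deposited, and 8.4% and 1.6% after rescaling to TPM. Markers of other cells were present too, and their counts are as deposited unless marked. The 12 neuronal, glial and neural crest markers found of 18 summed to 149 and 193 FPKM in the AAPH and saline libraries; 0 of the 9 tested were higher and 4 lower, and DBH was listed at 0 in the saline library. The 15 erythroid markers found of 26 summed to 2575 and 3742 FPKM, with 1 of 15 tested higher, 5 lower and none at 0. The 10 liver markers found of 12 summed to 89.7 and 178 FPKM, with 0 of 4 tested higher and 2 lower, and APOH was listed at 0 in the saline library. APOA1 held 72.0 and 156 FPKM of these sums. ALB (0.16 and 0.28 FPKM) and FGG (0.032 and 0.031 FPKM) were below the filter. Endothelial markers (12 of 14, sums of 350.3 and 356 FPKM) and smooth muscle markers (8 of 10, 908 and 872 FPKM) had 0 higher and, in smooth muscle, 1 lower. Fibroblast and epicardial markers (11 of 14, 1030.1 and 1108 FPKM) had 1 of 10 tested lower, and macrophage markers (10 of 16, 31.3 and 38.4 FPKM) had 2 of 7 tested lower. After rescaling to TPM, the higher and lower counts were 1 and 1 in neuronal, 1 and 4 in erythroid and 0 and 1 in liver markers. They were 1 and 0 in endothelial, 0 and 1 in smooth muscle, 0 and 0 in fibroblast and 1 and 1 in macrophage markers. In whole hearts, fewer cells of a type and less RNA per cell cannot be told apart, and the part of these markers in the values below was not tested. Genes of the Z chromosome, of which male birds carry a pair and females a single copy, had a median log2 ratio of 0.31 over 402 tested genes, 339 of them above 0, and the members MED18 and NR2F1 lie on it.

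Most members had similar levels in both libraries. Of the 60, 50 passed the filter on low values: 14 of 24 nuclear receptors, all 9 NCOA and NCOR genes, all 26 Mediator genes and NR2C2AP. The members past 1.5-fold were identified by their nearest reference transcripts: ENSGALT00000046073 for MED18, ENSGALT00000007275 for NCOA3, ENSGALT00000018481 for NR2C1, ENSGALT00000043074 for NR2C2AP and ENSGALT00000005387 for RXRG. In the AAPH library 3 of the 50 were higher, MED18, NCOA3 and NR2C1, where 2.73% of all genes tested were higher. Another 2 of the 50, NR2C2AP and RXRG, were lower, where 3.93% of all genes tested were lower. With so few genes past the threshold, neither share was read as a result about the members. Of the 50, 28 had log2 ratios above 0, against 50.5% of all genes. The median log2 ratio was 0.04 over the members and 0.0039 over all genes, whose quartiles were −0.19 and 0.18. After rescaling to TPM, 4 of the 50 were higher, where 8.4% of all genes were, and 0 were lower, where 1.6% were.

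**Figure D1:**
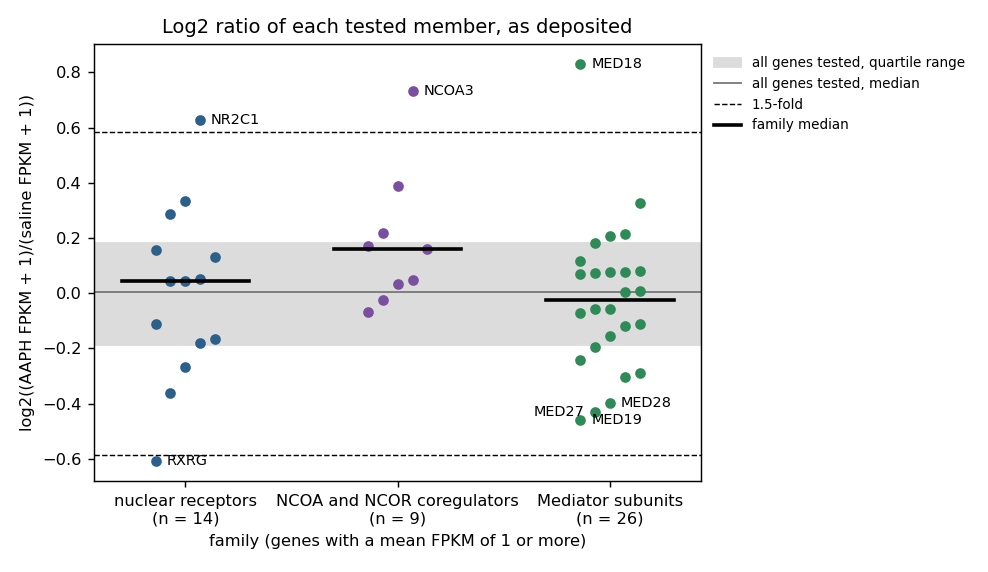
Log2 ratio of AAPH over saline (y axis, as deposited) for the tested members of each family (x axis); each point is a gene, thick bars are family medians, the grey band is the quartile range of all genes tested and dashed lines mark 1.5-fold. MED18, NCOA3 and NR2C1 lie above the upper line and RXRG below the lower one, with NR2C2AP (−0.61) not drawn.

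Among nuclear receptors that passed the filter, a few genes held most of the level. THRA, RARB, NR2F2, ESRRG and PPARD together summed to 115 FPKM in the AAPH library and 108 FPKM in the saline library, which was 71.6% and 70.8% of the FPKM of all 24 receptor genes. The 14 tested receptors had a median log2 ratio of 0.04, which lay 0.04 above that of all genes as deposited and 0.02 above it after rescaling to TPM.

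THRA, the thyroid hormone receptor alpha gene, had the highest level of any receptor, at 46.7 FPKM in the AAPH library and 38.1 FPKM in the saline library. Its log2 ratio of 0.29 lay within 1.5-fold as deposited, and it was 0.54 after rescaling to TPM and 0.58 after the second rescaling. THRA accounted for 29.2% of the receptor FPKM in the AAPH library and 24.9% in the saline library. Next to THRA on chromosome 27 lies the Mediator tail gene MED24, with no protein-coding gene between them in the RefSeq gene order (assembly GRCg7b). MED24 lay on the other side, at 12.8 FPKM in the AAPH library and 15.3 FPKM in the saline library (log2 ratio −0.24, and −0.0006 after rescaling to TPM). THRB and VDR had no value under those names and are not analysed here.

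The 3 tested retinoid receptor genes had log2 ratios below 0 as deposited, with RARB and RXRA above 0 under both rescalings. RARB, a retinoic acid receptor whose own gene is a known target of retinoic acid, was at 19.5 FPKM in the AAPH library and 22.0 FPKM in the saline library (−0.17). RXRA, a common partner that forms heterodimers with RAR, THR, PPAR and other receptors, was at 4.73 and 5.20 FPKM in the AAPH and saline libraries (−0.11). RXRG, another RXR, was the lowest of the 3, at 0.657 FPKM in the AAPH library and 1.53 FPKM in the saline library.

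The log2 ratio of RXRG was −0.61, past 1.5-fold, and came within it after either rescaling (−0.45 and −0.56). The median of all genes was 0.23 and 0.27 under these rescalings, so RXRG did not come closer to all genes. As few as 9 fragments in the AAPH library and 22 in the saline library would give its ratio of FPKM, a ratio of 0.43 with an exact Clopper-Pearson 95% interval of 0.174 to 0.972 that covers counting error only. This interval holds for the values as deposited and was not computed for either rescaling. RXRG was also the member just inside the filter, with a mean of 1.09 FPKM. It passed through its saline value alone, being below 1 FPKM in the AAPH library. Just outside the filter was NR5A2, a receptor of the steroidogenic factor group, at 0.908 FPKM in the AAPH library and 0.968 FPKM in the saline library.

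Relative to all genes, the median of the 3 retinoid receptors was lower by a log2 difference of −0.17 as deposited, −0.15 after rescaling to TPM and −0.16 after the second rescaling. RARA, RARG and RXRB had no value under those names and are not analysed here.

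The 3 tested receptors of the PPAR and estrogen-related groups, tied to energy metabolism, were close between the libraries. ESRRG, an estrogen-related receptor that in mice drives mitochondrial and oxidative genes in heart muscle, was at 17.2 FPKM in the AAPH library and 15.3 FPKM in the saline library (0.16). ESRRB, its paralog, was at 3.60 and 3.20 FPKM in the AAPH and saline libraries (0.13). PPARD, a fatty acid sensor, was at 15.6 and 15.1 FPKM (0.04). All 3 were within 1.5-fold. PPARA, PPARG and ESRRA had no value under those names and are not analysed here. The same holds for NR1D1, NR1D2, NR1H2 and NR1H3. An entry named PPAR, without a subtype letter, is outside the rule and is not analysed here.

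Among steroid receptors, the corticoid receptors were measured and the estrogen receptors were not above the filter. NR3C1, the glucocorticoid receptor gene, was at 5.85 FPKM in the AAPH library and 4.44 FPKM in the saline library (0.33). This direction came from a separate assembled locus that carries the same gene name. That locus had 2.49 FPKM in the AAPH library and was listed at 0 in the saline library, while the other locus had 3.36 FPKM in the AAPH library and 4.44 FPKM in the saline library (−0.32). NR3C2, the mineralocorticoid receptor gene, was at 3.45 and 3.31 FPKM in the AAPH and saline libraries (0.04). ESR1 and ESR2 were at 0.060 and 0.033 FPKM in the AAPH library and listed at 0 in the saline library.

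The COUP transcription factors, orphan receptors, were on the lower side as deposited, NR2F2 not under the rescalings. NR2F2 (COUP-TFII), known in mice for a part in atrial and venous identity, was at 15.6 FPKM in the AAPH library and 17.8 FPKM in the saline library (−0.18, and 0.07 after rescaling to TPM). NR2F1 (COUP-TFI) was at 8.24 and 10.9 FPKM in the AAPH and saline libraries (−0.36, and −0.13 after rescaling to TPM). NR2F1 lies on the Z chromosome, where 63 of 402 tested genes had ratios below 0. Both were within 1.5-fold.

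The testicular receptors NR2C1 and NR2C2, which in mammals repress embryonic globin genes in red cells, did not lie together. NR2C1 was at 7.20 FPKM in the AAPH library and 4.31 FPKM in the saline library, a ratio of 1.67 and a log2 ratio of 0.63. It was past 1.5-fold under both rescalings too, which move most ratios up and so are no check on this call. NR2C2 was at 5.35 and 5.12 FPKM in the AAPH and saline libraries (0.05). The gene of the NR2C2 partner, NR2C2AP, was at 2.54 FPKM in the AAPH library and 4.42 FPKM in the saline library (−0.61). It lay within 1.5-fold under the TPM scale (−0.40) and the second rescaling (−0.42). Relative to the median of all genes, NR2C2AP was at −0.62 as deposited, −0.63 after rescaling to TPM and −0.70 after the second rescaling. The summed erythroid marker level is given above, and most of it was the globin gene HBG2, at 1695 FPKM in the AAPH library and 2267 FPKM in the saline library. Of the 15 tested erythroid markers, 7 had log2 ratios above 0 and 8 below 0 as deposited. Their part in the values of these receptors was not tested.

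NR0B1 (DAX1), a receptor without the usual zinc fingers that restrains other receptors, was at 3.64 FPKM in the AAPH library and 4.58 FPKM in the saline library (−0.27). Receptors below the filter were at low levels in both libraries. NR4A3, an early response gene of the NR4A group, was at 1.01 FPKM in the AAPH library and 0.234 FPKM in the saline library, and NR4A2, of the same group, was at 0.034 and 0.033 FPKM. NR6A1, the germ cell nuclear factor gene, was at 0.654 and 0.383 FPKM in the AAPH and saline libraries. NR2E1 was at 0.044 and 0.210 FPKM, numbers that 1 and 5 fragments could give (ratio 0.21, exact interval 0.0044 to 1.88). NR5A1 and NR0B2 were listed at 0 in the AAPH library and at 0.069 and 0.057 FPKM in the saline library. For NR2E1 the direction is within counting error if its levels rest on these smallest numbers.

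**Figure D2:**
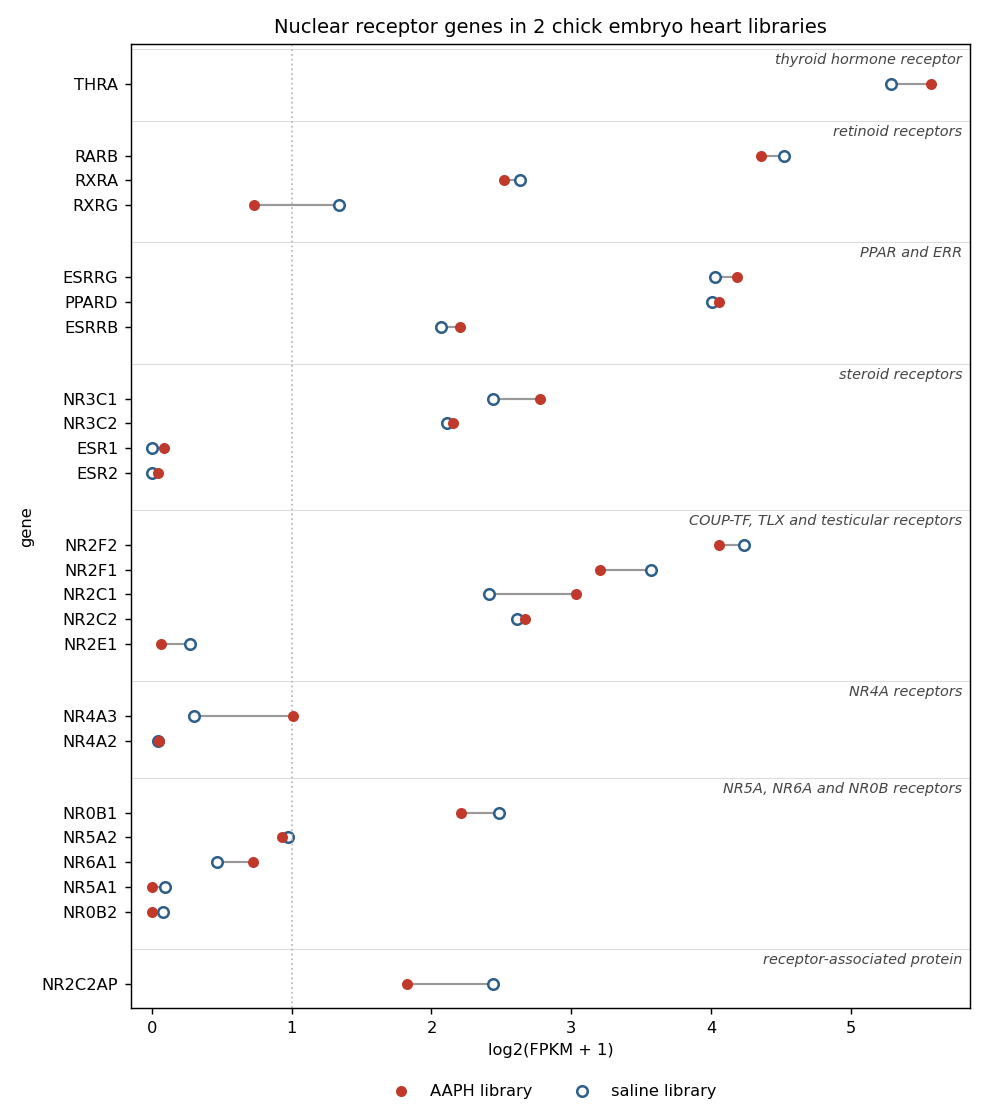
Level of the nuclear receptor genes described here and NR2C2AP as log2(FPKM + 1) (x axis), grouped by role and ordered by level (y axis); filled points show the AAPH library, open points the saline library, and the dotted line is an FPKM of 1. The widest gaps among tested genes are those of NR2C1, NR2C2AP and RXRG, and THRA stands to the right of all others at 46.7 and 38.1 FPKM.

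The 9 NCOA and NCOR genes had a median log2 ratio of 0.16, and 7 of the 9 were above 0 as deposited. NCOA6 and NCOA7 lay below the median of all genes as deposited and under both rescalings. Relative to all genes the median was higher by 0.16 as deposited, 0.15 after rescaling to TPM and 0.16 after the second rescaling. Most of the 9 had a mean FPKM below 10, and the median log2 ratio of all genes as deposited was 0.06 at 3 to below 10. Only NCOA3 of the 9 was past 1.5-fold as deposited.

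The p160 coactivators are the proteins that a ligand-bound receptor recruits, and 2 of their 3 genes were close between the libraries. NCOA1 was at 4.48 FPKM in the AAPH library and 4.35 FPKM in the saline library (0.03), and NCOA2 at 5.03 and 4.36 FPKM (0.17). NCOA3 was the lowest of the p160 genes and had the largest difference, at 2.63 FPKM in the AAPH library and 1.18 FPKM in the saline library. This is a ratio of 2.22 and a log2 ratio of 0.73. After rescaling to TPM the log2 ratio was 0.86, where the median of all genes was 0.23. The deposited value of 0.73 is the second largest log2 ratio among the members that passed the filter.

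Of the corepressors, scaffolds that bring the deacetylase HDAC3 to unliganded receptors, NCOR1 was at 7.82 FPKM in the AAPH library and 6.89 FPKM in the saline library (0.16, and 0.38 after rescaling to TPM).

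Of the other NCOA genes, NCOA4 had the highest level of any member averaged over both libraries, with MED9 above it in the saline library. The product of NCOA4 is known as the receptor that carries ferritin to lysosomes as well as a receptor coactivator. NCOA4 was at 59.4 FPKM in the AAPH library and 57.4 FPKM in the saline library (0.05). NCOA5 was at 11.6 and 9.82 FPKM in the AAPH and saline libraries (0.22), NCOA6 at 5.72 and 5.83 FPKM (−0.02) and NCOA7, which shares a domain with the oxidation resistance protein OXR1, at 3.19 and 3.39 FPKM (−0.07). Both were above 0 under the rescalings, which move most ratios up.

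Mediator genes spanned a wide range of levels and, with the exception of MED18, were within 1.5-fold as deposited. The mean FPKM over both libraries ran from 1.43 for MED12L to 54.5 for MED9. The median log2 ratio of the 26 genes was −0.03, with 13 above and 13 below 0, and it was 0.21 after rescaling to TPM. Relative to all genes it was lower by −0.03 as deposited and −0.02 under either rescaling. The summed Mediator level was 429 FPKM in the AAPH library and 458 FPKM in the saline library.

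In the head, the part of Mediator that contacts RNA polymerase II, MED18 stood apart from its partners. MED18 was at 21.2 FPKM in the AAPH library and 11.5 FPKM in the saline library, a ratio of 1.85 and a log2 ratio of 0.83, the largest of any tested member. After rescaling to TPM the log2 ratio was 1.07, where the median of all genes was 0.23. MED18 is the Z-linked Mediator gene, and 61 of 402 tested Z genes were higher and 3 lower; the part of the sex of the embryos in this value was not tested. MED20, which pairs with MED18 in the complex, was at 53.2 and 48.9 FPKM in the AAPH and saline libraries (0.12). MED8, which holds this pair to the head, was at 14.4 and 15.02 FPKM (−0.06, and 0.18 after rescaling to TPM).

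The other head genes were MED6, at 44.2 FPKM in the AAPH library and 50.8 FPKM in the saline library (−0.20), MED22 (−0.12) and the head scaffold MED17 (0.07). MED6, MED8 and MED22 were above 0 under both rescalings. The head median was 0.02 above that of all genes after rescaling to TPM and 0.0045 above it as deposited.

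In the middle module, MED14, the backbone that joins the modules, was at 7.06 FPKM in the AAPH library and 5.43 FPKM in the saline library (0.33, and past 1.5-fold at 0.61 after the second rescaling). MED1, the subunit that binds ligand-bound receptors directly, was at 7.78 and 7.32 FPKM in the AAPH and saline libraries (0.08). MED19 had the lowest log2 ratio of the 26 Mediator genes, at 15.0 FPKM in the AAPH library and 21.0 FPKM in the saline library (−0.46). MED9, at 48.7 and 60.3 FPKM (−0.30), and MED21 (−0.29) followed within the middle module, and all 3 stayed below 0 under both rescalings.

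MED4 (−0.11), MED7 (−0.06), MED31 (0.01) and MED10 (0.08) were near 0 as deposited. The subunits MED27, MED28 and MED30, found in animals and placed at the head and tail, had log2 ratios of −0.43, −0.40 and −0.15 as deposited, and MED30 was above 0 under both rescalings. MED27 was at 17.3 FPKM in the AAPH library and 23.6 FPKM in the saline library. MED28 was at 30.3 and 40.3 FPKM in the AAPH and saline libraries, of which a separate locus of that name held 2.48 FPKM in the AAPH library and was listed at 0 in the saline library. MED30, in which a mutation causes cardiomyopathy in mice, was at 4.47 and 5.09 FPKM.

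The median of MED27, MED28 and MED30 lay −0.40 from that of all genes as deposited, −0.37 after rescaling to TPM and −0.39 after the second rescaling. Among tail genes, MED23 was at 10.2 FPKM in the AAPH library and 8.88 FPKM in the saline library (0.18), while MED24 is given above beside THRA, and MED15 (0.01) and MED16 (−0.07) were near 0 as deposited.

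The MED genes of the kinase module, which docks on Mediator and blocks its contact with the polymerase, had low levels among Mediator genes. All 4 of these MED genes had log2 ratios above 0 as deposited, where 50.5% of all genes did, and none was past 1.5-fold. Their median lay 0.14 above that of all genes as deposited, 0.09 above it after rescaling to TPM and 0.12 above it after the second rescaling. Genes of like level also lay on the higher side as deposited. At a mean FPKM of 1 to below 3, 863 of 1516 genes were above 0, and at 3 to below 10, 2022 of 3453 were. The median of all genes was 0.06 in either range. MED12 was at 6.02 FPKM in the AAPH library and 5.07 FPKM in the saline library (0.21), and its paralog MED12L at 1.61 and 1.25 FPKM (0.21). MED13, which in the mouse heart controls thyroid hormone and nuclear receptor target genes, was at 5.81 and 5.49 FPKM in the AAPH and saline libraries (0.07), and its paralog MED13L at 3.08 and 2.87 FPKM (0.08). The partners of these subunits outside the name rule were within 1.5-fold: the kinase gene CDK19 was at 23.2 FPKM in the AAPH library and 19.9 FPKM in the saline library (0.21), CDK8 at 2.43 and 2.48 FPKM (−0.02) and cyclin C (CCNC) at 12.9 and 12.4 FPKM (0.05).

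The median log2 ratio of all genes was lower at higher levels, and the Mediator genes are set beside genes of like level for that reason. At a mean FPKM of 3 to below 10 the 9 Mediator genes had a median log2 ratio of 0.07 against 0.06 in all genes. At 10 to below 30 it was −0.06 in 11 Mediator genes against −0.004 in all genes, and at 30 to below 100 it was −0.25 in 4 Mediator genes (MED6, MED9, MED20 and MED28) against −0.07 in all genes.

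**Figure D3:**
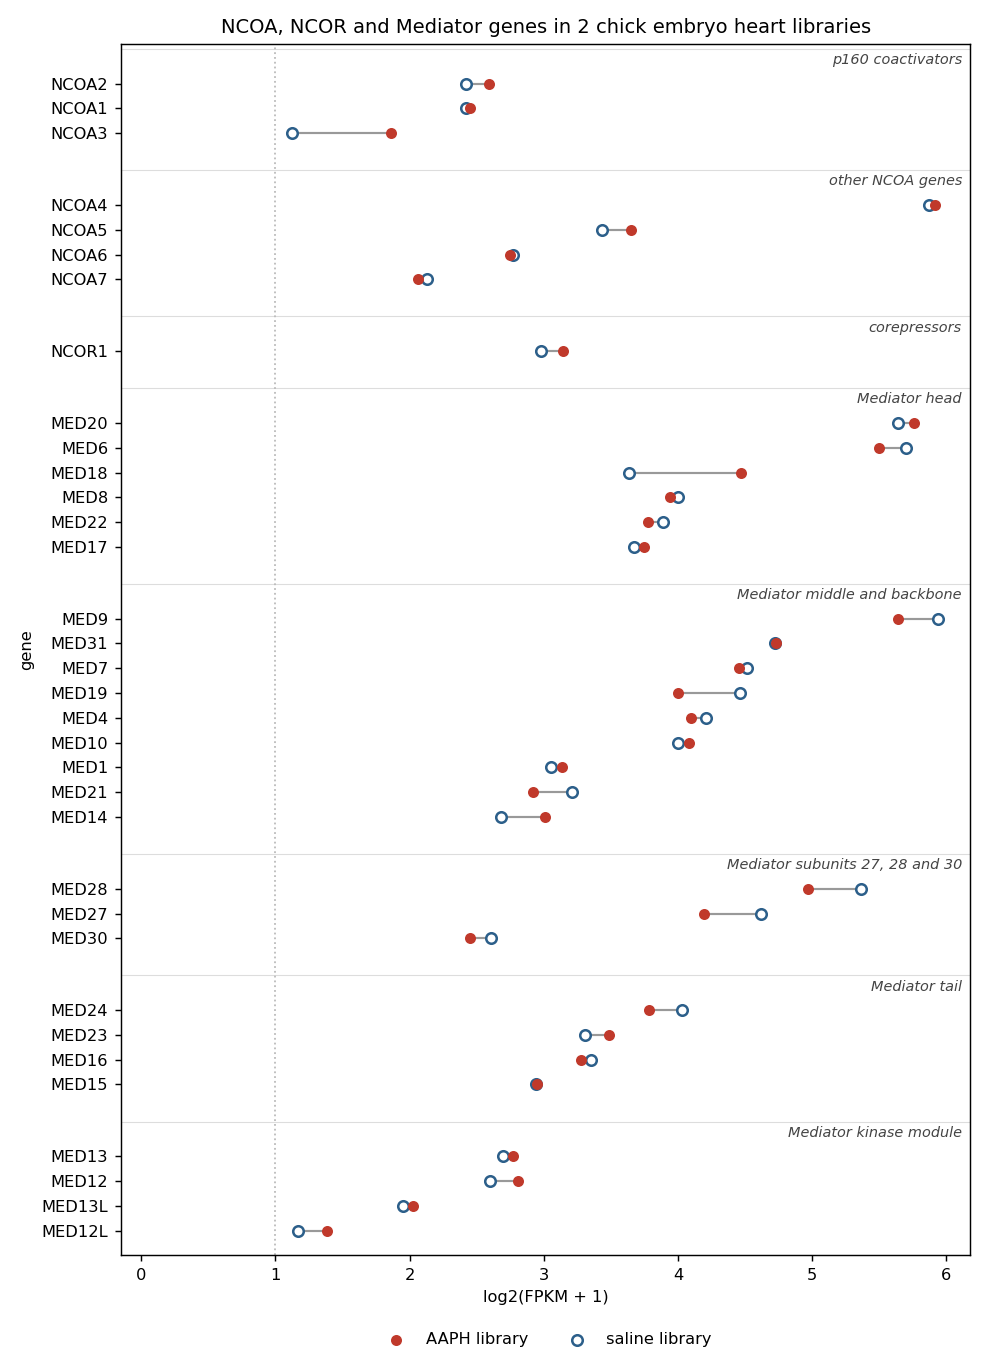
Level of the NCOA and NCOR genes described here and the 26 Mediator genes as log2(FPKM + 1) (x axis), grouped by role or module and ordered by level (y axis); filled points show the AAPH library, open points the saline library, and the dotted line is an FPKM of 1. NCOA3 and MED18 have the widest gaps, and MED12L, of the kinase module, lies furthest to the left among the Mediator genes.

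The summed levels hid differences between transcripts of the same gene. Of the 32 tested members with more than 1 assembled transcript, 13 had a transcript whose share of the gene's FPKM differed by 25 percentage points or more between the libraries, which is 40.6%, against 27.5% of all 6743 such genes. By family these were 8 of 10 nuclear receptors, 3 of 9 NCOA and NCOR genes and 2 of 13 Mediator genes. Shares were taken over all rows of a gene name, for members and all genes alike. The change in NR3C1 lies largely between its 2 loci: the separate locus held 42.6% of its FPKM in the AAPH library and 0% in the saline library. The share of all genes past 25 points was 18.3% with 2 transcripts, 35.5% with 3 and 41.0% with 4 or more, and among members it was 4 of 16, 6 of 9 and 3 of 7. The difference between families was not tested.

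ESRRG had the largest such difference. Its first transcript was at 15.6 FPKM in the AAPH library and 4.60 FPKM in the saline library, and its second at 1.58 and 10.7 FPKM. The summed level of ESRRG, given above, had a log2 ratio of only 0.16. In PPARD, 3 transcripts were at 6.004, 6.89 and 2.72 FPKM in the AAPH library, while in the saline library the second held 15.1 FPKM, the first was at 0.018 FPKM and the third was listed at 0.

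The assembled transcripts of NR0B1 have different nearest reference transcripts, ENSGALT00000026260 and ENSGALT00000044837. The first was at 1.56 FPKM in the AAPH library and 4.58 FPKM in the saline library, and the second at 2.08 and 0.00019 FPKM. In RXRA, the first transcript was at 4.73 FPKM in the AAPH library and 2.53 FPKM in the saline library, and the second at 0.00019 and 2.67 FPKM. The third transcript of NR2F2 was at 3.64 and 11.0 FPKM in the AAPH and saline libraries, with the first at 6.62 and 3.52 FPKM.

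For the members past 1.5-fold the transcripts went together only in part. In NR2C1, the transcripts listed last were at 2.25 and 3.60 FPKM in the AAPH library and 0.9502 and 1.14 FPKM in the saline library, the first at 1.35 and 0.00025 FPKM and the second at 0.00038 and 2.22 FPKM. In NCOA3, the third transcript was at 1.72 FPKM in the AAPH library and 0.840 FPKM in the saline library, the first at 0.909 FPKM and listed at 0, and the second at 0.00014 and 0.344 FPKM. Counted by its highest transcript alone, NCOA3 came within 1.5-fold (0.57). In MED18, the second transcript was at 18.5 FPKM in the AAPH library and 8.71 FPKM in the saline library and the first at 2.67 and 2.75 FPKM. Among these genes, NR2C1 had transcripts near 0 in 1 library and above 1 FPKM in the other. No replicate shows how far the split of fragments between transcripts varies.

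**Figure D4:**
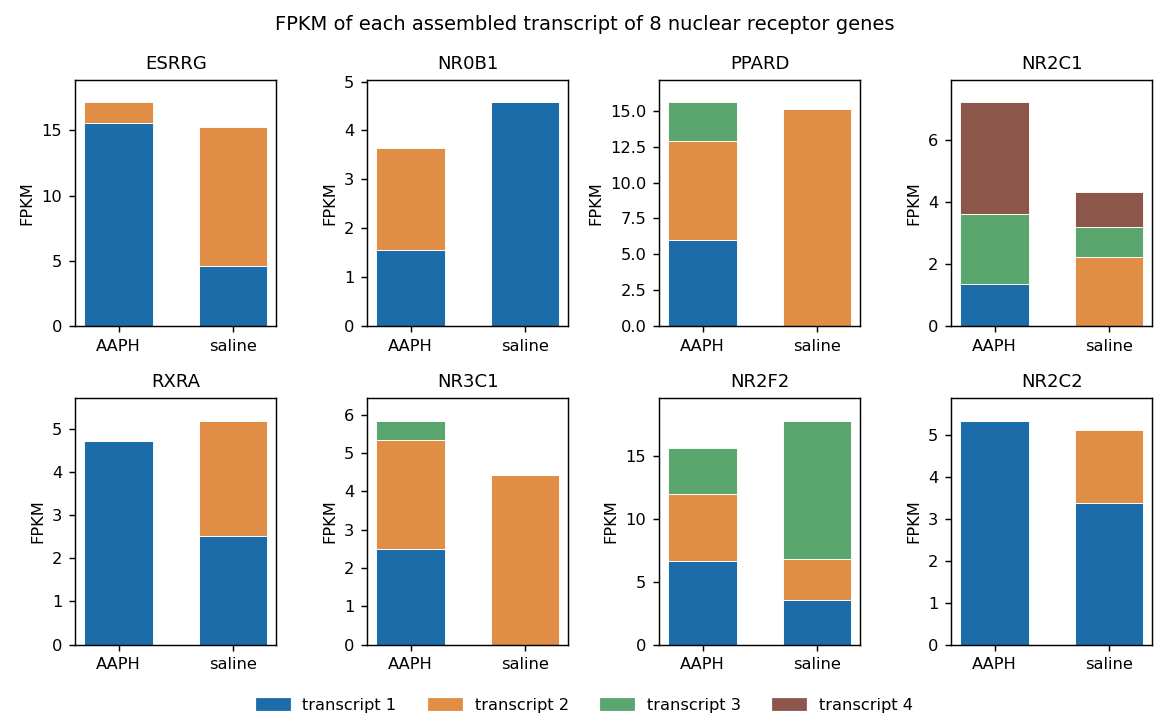
FPKM (y axis) of each assembled transcript, stacked, in the AAPH library and in the saline library (x axis) for the 8 nuclear receptor genes whose largest change in share was 25 points or more. The NR3C1 panel stacks transcripts of 2 loci. Column heights are close in most panels, while the composition differs, as in ESRRG, where the first transcript was at 15.6 and 4.60 FPKM.

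Genes that work beside the receptors were described from lists of supply enzymes, cofactors and textbook targets, with the background shares given above. Other coregulators had a median log2 ratio of 0.07 over 39 tested genes, with 28 above 0 as deposited, and it lay 0.07 above that of all genes as deposited and after rescaling to TPM. None of the 39 was past 1.5-fold as deposited. PPARGC1B, a coactivator of the estrogen-related receptors, lay farthest to the higher side at 2.19 FPKM in the AAPH library and 1.203 FPKM in the saline library (0.54), and SRA1, an RNA coactivator gene, farthest to the lower side at 58.5 and 81.4 FPKM (−0.47).

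Steroid receptor chaperones (13 tested, median 0.05, none past 1.5-fold as deposited) ran from HSP90AB1 at 59.5 FPKM in the AAPH library and 66.7 FPKM in the saline library (−0.16) to HSP90AA1 at 426 and 324 FPKM (0.39).

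Retinoid supply and retinoic acid target genes had a median of −0.13 over 14 tested genes as deposited and 0.13 after rescaling to TPM, which lay −0.13 and −0.10 from that of all genes. RBP7, a cellular retinol-binding protein gene, was past 1.5-fold, at 1.86 FPKM in the AAPH library and 0.665 FPKM in the saline library (0.78), and 0 of the 14 were lower. RBP7 passed the filter through its AAPH value alone, being below 1 FPKM in the saline library. TGM2, a transglutaminase gene induced by retinoic acid, lay farthest to the lower side at 96.6 and 135 FPKM in the AAPH and saline libraries (−0.48). The retinoic acid synthesis gene ALDH1A2, also on the fibroblast and epicardial list, had a log2 ratio of 0.20, and the degradation genes CYP26A1 and CYP26B1 0.32 and −0.18 (0.0067 after rescaling to TPM); these 3 were picked after their values were seen.

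Of 5 tested genes of thyroid hormone supply and targets, TG (thyroglobulin) was higher, at 4.97 FPKM in the AAPH library and 0.116 FPKM in the saline library (2.42), and MYH7, a myosin heavy chain gene, was lower, at 127 and 215 FPKM (−0.76, within 1.5-fold under both rescalings). MYH7 is also on the cardiomyocyte list. The median of the 5 was 0.27, with 4 of them above 0 as deposited, TG among these. TG passed the filter through its AAPH value alone, being below 1 FPKM in the saline library. The cell type markers held no thyroid list, and the part of tissue other than heart in the TG value was not tested.

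PPAR and estrogen-related receptor targets had a median of 0.15 over 21 tested genes, with 12 above 0 as deposited, and it lay 0.15 above that of all genes as deposited and 0.17 above it after rescaling to TPM. PLIN2, a lipid droplet coat protein gene on the Z chromosome, was past 1.5-fold at 37.7 FPKM in the AAPH library and 22.0 FPKM in the saline library (0.75). The fatty acid carrier gene FABP3 was the farthest to the lower side (−0.26, and 0.0009 after rescaling to TPM). With the 5 Z-linked genes left out, the median was 0.06 over 16 genes, 8 of them above 0, and none was past 1.5-fold.

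Glucocorticoid supply and target genes had a median of −0.15 over 13 tested genes as deposited and 0.10 after rescaling to TPM, with none past 1.5-fold as deposited. TSC22D3, a classic target of the receptor, was at 21.4 FPKM in the AAPH library and 30.6 FPKM in the saline library (−0.49), and PDK4 at 9.76 and 7.54 FPKM (0.33).

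The list of liver X receptor targets and cholesterol sensors (12 tested, median 0.09, or −0.06 without the 2 Z-linked genes) had 0 higher and 1 lower. The lower gene was APOA1, at 72.0 FPKM in the AAPH library and 156 FPKM in the saline library (−1.10), which is also on the liver list. ABCA1, a cholesterol exporter gene on the Z chromosome, lay farthest to the higher side (0.53).

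Circadian clock genes (12 tested, median 0.01, or −0.01 without the Z-linked gene) had 1 higher, NFIL3, on the Z chromosome, at 9.89 FPKM in the AAPH library and 4.57 FPKM in the saline library (0.97), and 1 lower, PER3, at 1.29 and 2.48 FPKM (−0.60, within 1.5-fold under both rescalings). The 2 tested vitamin D supply genes, CYP27A1 (−0.25) and CYP2R1 (−0.21), were within 1.5-fold, with a median of −0.23.

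**Figure D5:**
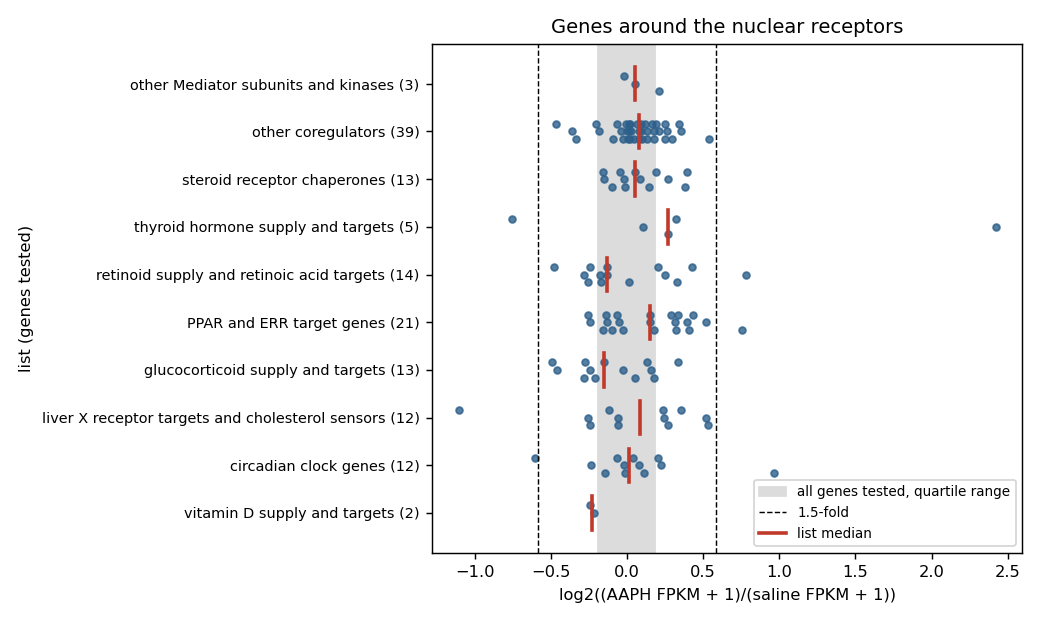
Log2 ratio of AAPH over saline (x axis, as deposited) for the tested genes of 10 lists around the nuclear receptors (y axis, number tested in brackets); each point is a gene, red bars are list medians, the grey band is the quartile range of all genes tested and dashed lines mark 1.5-fold. Most genes lie between the dashed lines, and TG (2.42), NFIL3 (0.97) and APOA1 (−1.10) lie furthest out.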

How the data were processed

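RNA of 2 libraries, 1 per group, was sequenced. Per the submitters' processing notes, the tools were bcl2fastq, then TopHat2 2.1.1 and Cuffdiff, with Cufflinks 2.2.1; the genome build is not given in the sources used here, nor are annotation, strandedness or the scaling of FPKM. Per the file headers, each deposited value is the FPKM of 1 assembled transcript. The tables list 27335 transcripts of 14677 loci; 1968 without a gene name, with 20.6% of the FPKM in the AAPH library and 18.2% in the saline library, were left out. Rows were summed per name, and overlapping or near-identical genes can share reads.

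Groups came from the labels' chemical entry. A pseudocount of 1 and a mean FPKM of 1 or more were used. Members were taken by name alone, but the name rule, the lists and the rule for named genes (members past 1.5-fold, family extremes and highest levels, every tested receptor, list extremes) were chosen with earlier results of these data known. Lists were matched by exact symbol.

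Absolute depth is unknown. Over 781 genes with 1 transcript at 0.05 to 0.3 FPKM in the saline library, 88.0% had a ratio that, divided by 1.05, was that of whole numbers up to 10 (tolerance 0.0002), so 1 fragment stood for 1.05 times the FPKM in the AAPH library that it did in the saline library. Quoted fragment numbers are the smallest that fit, and intervals are too wide if the true numbers are multiples.

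Chromosomes came from RefSeq (GRCg7b), which had all 60 members and 87.2% of tested genes. Figures used matplotlib 3.10.9 and statistics scipy 1.17.1, with pandas 2.3.3 and numpy 2.4.6 under Python 3.11.15. The calling step was also run on simulated data. These had only genes above the saline level of most called members, and folds larger than any of theirs. That run therefore does not test the calls of these members. Rescaling, pseudocount, filter, threshold, transcript and Z-linked alternatives were tried. A few genes are not reported here, and the counts and medians include them.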

Additional observations from a re-analysis of the deposited data

How the results depend on the processing

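No paired analysis was possible because each group has 1 library. As deposited, 3 members were higher and 2 lower. After rescaling to TPM 4 were higher and 0 lower. The second rescaling, with globin, mitochondrial-genome and unnamed entries left out of the sum, gave 6 and 0, where 12.8% of all genes were higher and 1.74% lower. With a pseudocount of 5, 1 was higher and 0 lower, where 0.554% of all genes were higher and 1.59% lower. At a mean FPKM of 5 or more, 37 members were tested, with 2 higher and 0 lower, where 1.83% and 3.35% of all genes were. At 2-fold, 0 were higher and 0 lower, where 0.356% and 0.782% of all genes were. Dividing the AAPH values by the median ratio of all genes (1.003) left 3 higher and 2 lower, where 2.68% and 3.98% of all genes were. With Z-linked genes left out, 48 members were tested, with 2 higher and 2 lower, where 2.22% and 4.06% of all genes were. By the highest transcript of each name, 6 were higher and 7 lower, where 7.83% of all genes were higher and 8.81% lower. The median log2 ratio under the rescaling to TPM and the second rescaling was 0.25 and 0.29 over members, 0.25 and 0.30 over nuclear receptors, 0.38 and 0.44 over NCOA and NCOR genes, and 0.21 and 0.25 over Mediator genes; relative to all genes, these medians moved by less than 0.1 under both. The use of the highest locus of each name was chosen after seeing the data, as were the medians relative to all genes; by that locus NR3C1 changed sign (−0.32) and the called members were MED18, NCOA3, NR2C1, NR2C2AP and RXRG, as in the deposited sums. Under the rescaling to TPM 12 of the 50 members changed sign. Depth limits the low members: RXRG rests on as few as 9 fragments in the AAPH library. The cause of these differences was not tested.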
